A study of Homo sapiens with 8 samples.

Results

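The genes described here are the nuclear genes for mitochondrial ribosomal proteins, taken as every row of the deposited tables whose symbol begins with MRPL or MRPS and a number. The tables held 78 such rows. MRPS6 was set aside because its span overlaps SLC5A3, which left 77 genes of 15041. By name, 49 were MRPL and 28 were MRPS genes. By place in the ribosome, 51 belonged to the large subunit and 25 to the small one, since MRPS18A and MRPS30 are large-subunit proteins despite their names, and MRPS36 is a subunit of the 2-oxoglutarate dehydrogenase complex.

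The mitochondrial ribosome translates the few proteins that mitochondrial DNA encodes, all of them subunits of the respiratory chain and ATP synthase. Its RNAs are made inside the organelle, whereas all of its proteins are made from nuclear genes in the cytoplasm and imported. Bacterial ancestors left part of these proteins, and others are found only in mitochondria: 47 members were classed as having a bacterial counterpart and 29 as mitochondrion-specific.

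Cells of MDA-MB-231, an established breast cancer line of human origin that lacks hormone receptors and HER2 amplification, were profiled one at a time by a modified Smart-seq2 protocol with libraries of transcript 3' ends. The 8 libraries formed 4 groups of 2. Wild-type (WT) cells were left untreated or given 5 Gy of ionizing radiation and cultured for 4 h more. Cells labelled ATM knockdown were left untreated or treated with the same dose and time. ATM is the kinase that signals DNA double-strand breaks, and how its transcript was lowered is not given in the sources used here. All groups shared the cell line and the culture medium. The WT libraries shared one title suffix and the knockdown libraries another, so genotype cannot be told apart from any difference in handling between those sets.

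Kept cells of the 8 libraries summed to between 9321268 and 24256471 counts, and 363 of 378 cells passed the filters. Levels are given as CPM, counts relative to a common library total after scaling. In WT, the ATM transcript had levels of 58.2 and 31.9 CPM before and 29.1 and 33.9 CPM after irradiation. Cells labelled knockdown had 13.6 and 31.8 CPM before and 12.6 and 13.9 CPM after it. Replicate 2 of the untreated knockdown therefore lay within the WT range, and ATM did not pass edgeR's quasi-likelihood test between genotypes in untreated (adjusted p = 0.157) or irradiated cells (adjusted p = 0.109). VIM, a mesenchymal marker of this line, was at 1851 to 2921 CPM, and the summed leukocyte markers were at 0 to 1.79 CPM. Whether both libraries of a group stem from independent cultures is not stated, so the p-values cover variation among these libraries, possibly technical variation alone.

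Promoter sequences were read for 68 of the 77 members, matched by symbol to RefSeq on GRCh38.p14. Each covers 250 bases before the transcript start and 50 after it. The letters AAGATGGCG, which YY1 binds, were found on either strand in 13 member promoters (19.1%), against 1.85% of 27305 RefSeq promoters and 3.98% of the 9786 promoters of genes tested here. The letters CCGGAAG, the core bound by ETS factors such as GABPA, were found in 29 member promoters (42.6%), against 10.7% of all promoters and 19.2% of those of tested genes. The palindromic NRF1 motif was found in 8 (11.8%), against 6.28% and 11.6%. CACGTG, the E-box that MYC binds, was found in 6 (8.82%), against 7.43% and 10.0%. The members' shares with the YY1 and ETS letters lay above those of tested genes, and the share with the NRF1 motif lay close to it. No test was made. These are matches of letters and carry no measurement of binding.

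The 6 windows below show where the matches lay, with the ETS and YY1 letters (or, in MRPS34, their reverse complement) in capitals, 5' to 3' on the strand of the gene, from 60 bases before the start to 30 after it. Among members with a match, MRPS30, MRPL20, MRPL3 and MRPS34 are shown because both irradiated libraries lay above both untreated ones in each genotype. Members with that pattern held the YY1 or ETS letters no more often than the others. They held them in 3 and 6 of 19 promoters, against 10 and 23 of 49. MRPS10 holds both kinds of match, and MRPL42 carries the YY1 letters with no ETS match.
MRPS30: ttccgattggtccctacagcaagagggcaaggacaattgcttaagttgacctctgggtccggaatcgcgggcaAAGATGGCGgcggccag
MRPL42: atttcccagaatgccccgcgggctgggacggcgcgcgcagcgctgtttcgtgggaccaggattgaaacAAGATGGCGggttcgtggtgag
MRPS10: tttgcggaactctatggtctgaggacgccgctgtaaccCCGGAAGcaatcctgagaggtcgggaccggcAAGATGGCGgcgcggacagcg
MRPL20: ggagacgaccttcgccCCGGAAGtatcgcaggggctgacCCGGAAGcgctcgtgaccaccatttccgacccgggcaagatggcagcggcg
MRPL3: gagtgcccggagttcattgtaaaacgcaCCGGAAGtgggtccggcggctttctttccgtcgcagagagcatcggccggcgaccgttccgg
MRPS34: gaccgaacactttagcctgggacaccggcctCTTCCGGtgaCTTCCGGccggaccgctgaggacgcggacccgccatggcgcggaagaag

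The MRPS30 window lay at chr5:44808887-44808976, plus strand. The MRPL42 window lay at chr12:93467454-93467543, plus strand. The MRPS10 window lay at chr6:42217832-42217921, minus strand. The MRPL20 window lay at chr1:1407264-1407353, minus strand. The MRPL3 window lay at chr3:131502942-131503031, minus strand. The MRPS34 window lay at chr16:1773105-1773194, minus strand.

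Of the 14 YY1 matches in member promoters, 10 began after the transcript start and 12 read forward on the strand of the gene, with a median first base 8.5 bases past the start. Positions are those of the first base of a match, counted from the transcript start. The 39 ETS matches lay mostly before it, with a median of -22, and 4 began after the start, with those of MRPL53 and MRPS33 at the start itself. In MRPS10 the ETS match began at -22 and the YY1 match at 9. In MRPL20 the ETS matches began at -44 and -21.

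The members differed widely in level. MRPL14, a large-subunit protein that binds the assembly factor MALSU1, had the highest level per kilobase of exon, with 506 CPM per kb over all libraries. MRPL41, a mitochondrion-specific large-subunit protein, followed at 305 CPM per kb, and MRPL33, a small protein with a bacterial counterpart, at 279 CPM per kb. MRPL51 (242 CPM per kb) and MRPL36 (176 CPM per kb) came next, so the 5 highest by this measure were all large-subunit genes. In libraries of 3' ends a count need not grow with transcript length, so CPM is given beside these values: MRPL14 ranged from 406 CPM in replicate 1 of untreated WT to 537 CPM in replicate 1 of irradiated WT. MRPL33 and MRPL41 ranged from 371 to 471 CPM and from 326 to 452 CPM.

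At the other end, 4 members had too few counts for the test. MRPS18B was seen in 4 cells, MRPL38 in 6, MRPL53 in 7 and MRPL45 in 19. MRPL45, which anchors the ribosome to the inner membrane beside the exit tunnel, was at most 1.16 CPM in any library, and MRPL53, a neighbour of the stalk base, at most 0.205 CPM. Among tested members, MRPS24 and MRPS12 were lowest per kilobase, at 1.42 and 1.46 CPM per kb. MRPS12, a protein of the decoding centre, was at 0.892 to 6.17 CPM. The files give no reason for such low counts. In GENCODE 29, 99.6% of the last 500 exon bases of MRPL38 and 94.4% of those of MRPL53 are also exon of another gene, whereas MRPL45 and MRPS18B share none. Loci named as pseudogenes number 2 each for MRPL45 and MRPS18B, 1 for MRPL53 and 0 for MRPL38. Of the 77 members, 33 have such loci, and their part in the low counts was not tested.

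Proteins of one functional region did not share one level. At the stalk that recruits translation factors, MRPL12 was at 55.2 to 135 CPM, MRPL11 at 80.9 to 139 CPM and MRPL10, to which MRPL12 attaches, at 25.6 to 47.3 CPM. Around the exit tunnel, MRPL23 was at 19.3 to 66.4 CPM and MRPL44 at 9.29 to 26.0 CPM. Among the 3 paralogs of the MRPS18 family, MRPS18C was at 107 to 276 CPM and MRPS18A at 0.829 to 6.69 CPM, with MRPS18B near 0. MRPS34 was at 118 to 167 CPM, and MRPS36 at 37.4 to 72.7 CPM.

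The first comparison set WT cells 4 h after 5 Gy against untreated WT cells. Most members stood higher after irradiation: 62 of the 73 tested members had a log2 difference above 0, as did 48.8% of all 12456 genes tested, and their median was 0.28 against -0.01 for all genes. The summed level of the 77 members was 7395 and 7774 CPM in the untreated and 9309 and 8925 CPM in the irradiated libraries. Both irradiated libraries therefore lay above both untreated ones, and the group means of 7585 ± 268 and 9117 ± 271 CPM (SD, n = 2) differed 1.20-fold. Single genes were not called: 0 of 73 members passed edgeR's quasi-likelihood test at an adjusted p of 0.05, where 1.65% of all genes passed (0.907% higher and 0.739% lower). At an unadjusted p under 0.05, 20 members were higher (7.52% of all genes) and 0 lower (6.4%). DESeq2's Wald test called 4 members higher (MRPL4, MRPL21, MRPL58 and MRPS25), where 4.7% of all genes were called in either direction, and limma on the mean CPM per cell called 0 (1.58% of all genes). Leaving out 1 library gave 0 to 2 calls.

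**Figure D1:**
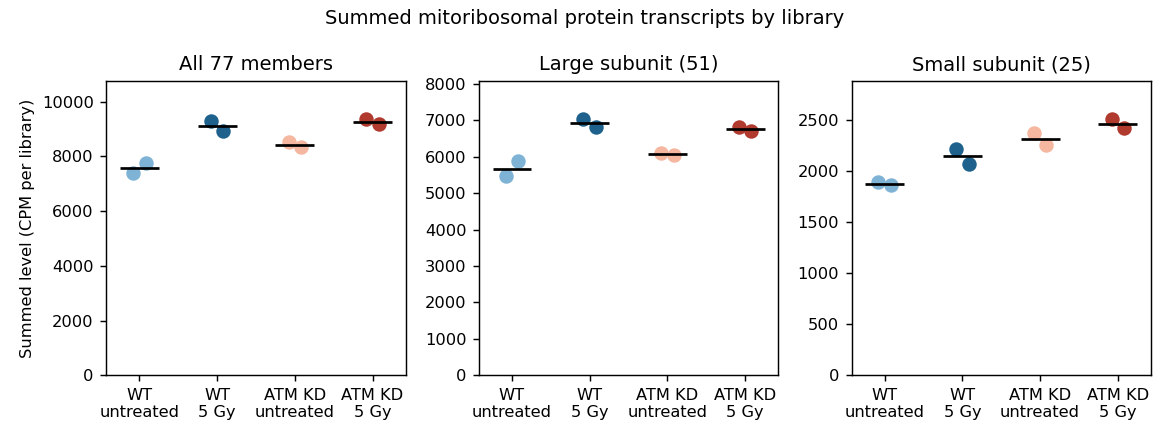
Summed level in CPM (vertical axis) of all 77 members, the 51 large-subunit and the 25 small-subunit members in each of the 8 libraries (points), with group means (bars). In both genotypes the irradiated libraries lie above the untreated ones for all members. The small-subunit sum is higher in the knockdown than in the WT libraries, by a narrow margin. Replicate 2 of untreated knockdown is at 2251 CPM and replicate 1 of irradiated WT at 2219 CPM. This sum includes MRPS18C and MRPS25, whose ends overlap genes on the opposite strand, and their part in it was not tested.

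Among members averaging 5 or more on the log2 CPM scale, the largest differences in WT belonged to proteins of both subunits. MRPS25, a mitochondrion-specific small-subunit protein, was at 25.4 and 14.4 CPM untreated and at 43.2 and 42.6 CPM irradiated, a log2 difference of 1.10 (SE 0.29, adjusted p = 0.0735 by edgeR). MRPL4, whose bacterial counterpart lines the exit tunnel, was at 18.2 and 23.4 CPM and then at 45.2 and 36.5 CPM, a log2 difference of 0.97 (SE 0.26, adjusted p = 0.0844). MRPL21 was at 84.9 and 97.4 CPM and then at 183 and 128 CPM, a log2 difference of 0.77 (SE 0.21, adjusted p = 0.082). In all 3 the libraries did not overlap, although none passed the test. The largest differences in the other direction were smaller: MRPS31 at -0.48, MRPS14 at -0.36 and MRPS5 at -0.22 on the log2 scale, with adjusted p of 0.398, 0.495 and 0.628.

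In the cells labelled knockdown, the summed level was 8530.3 and 8339 CPM untreated and 9352 and 9167 CPM irradiated. Again both irradiated libraries lay higher, by 1.10-fold between the means of 8435 ± 135 and 9259 ± 130.4 CPM (SD, n = 2). Of 73 members, 54 stood higher (50.8% of all genes), with a median log2 difference of 0.13 against 0.01. No member passed the edgeR test (0.225% of all genes did, 0.0321% higher and 0.193% lower), and at an unadjusted p under 0.05 there were 6 higher (4.05% of all genes) and 1 lower (4.81%). DESeq2's Wald test and limma on the mean CPM per cell called 0 members as well, where they called 1.42% and 0.979% of all genes. Without replicate 2 of the untreated knockdown, the library in which ATM lay within the WT range, 60% of the tested members stood higher.

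MRPL32, a protein matured by the m-AAA protease before it joins the large subunit, had the largest difference there among members of that level. It was at 92.2 and 125 CPM untreated and at 170.5 and 189 CPM irradiated, a log2 difference of 0.72 (SE 0.22, adjusted p = 0.283 by edgeR). MRPS30 was at 51.3 and 53.0 CPM and then at 86.5 and 77.6 CPM, a difference of 0.65 (adjusted p = 0.432). MRPL23 followed at 0.53 (adjusted p = 0.64). The lowest among members of that level were MRPS31 at -0.47, MRPS18C at -0.33 and MRPL39 at -0.30, with adjusted p of 0.616, 0.639 and 0.85.

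**Figure D2:**
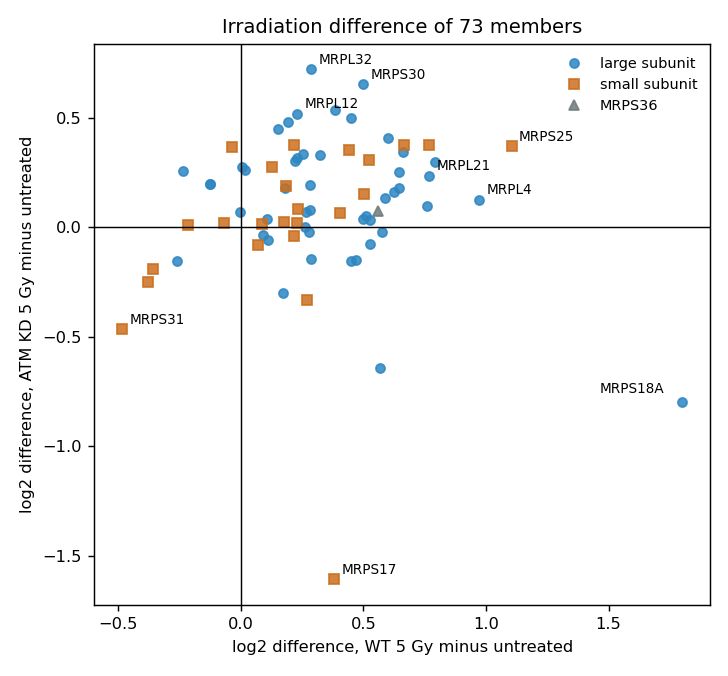
Log2 difference of each of the 73 tested members between irradiated and untreated libraries, in WT (horizontal axis) and in knockdown cells (vertical axis), with symbols for the subunit. Most points lie right of and above 0; MRPS31 has the lowest value in WT, and MRPS18A and MRPS17, both at few counts, lie apart.

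Members whose libraries did not overlap were also counted. These counts use the same libraries and values as the differences above, so they are no separate evidence of direction. In WT, 45 members had both irradiated libraries above both untreated ones (22% of all genes) and 3 below (22.1%). In knockdown cells these were 28 (20.9%) and 7 (18.6%). Both held in 22 members for the higher side, which is 30.1% of those tested, against 6.33% of all genes. Of the large subunit these were MRPL3, MRPL4, MRPL12, MRPL14, MRPL15, MRPL19, MRPL20, MRPL21, MRPL23, MRPL24, MRPL36, MRPL47, MRPL50 and MRPS30. Of the small subunit they were MRPS7, MRPS15, MRPS16, MRPS23, MRPS25, MRPS27, MRPS34 and MRPS35. MRPS31 alone was lower in both (5.07% of all genes were): it was at 70.2 and 57.5 CPM and then at 40.0 and 51.04 CPM in WT, and at 86.1 and 79.4 CPM and then at 65.7 and 54.1 CPM in knockdown cells. Another 4 loci carry the names of MRPS31 pseudogenes, and how reads shared with them were counted is not given in the sources used here.

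The abundant MRPL14 shows the size of the shift in a well-counted gene. It was at 406 and 466 CPM in untreated WT, 537 and 522 CPM in irradiated WT, 446 and 464 CPM in untreated knockdown and 519 and 523 CPM in irradiated knockdown cells. MRPS30 was higher after irradiation in both genotypes too, with 34.4 and 32.1 CPM and then 41.5 and 52.5 CPM in WT. Among the 19 of these 22 members with a promoter sequence, 3 held the YY1 and 6 the ETS letters, against 10 and 23 of the other 49 members.

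Averaged over both genotypes, 62 of 73 members stood higher (50.5% of all genes), with a median log2 difference of 0.22 against 0.01. No member passed edgeR's test (1.49% of all genes did, 0.642% higher and 0.851% lower), and at an unadjusted p under 0.05 there were 24 higher (7.5% of all genes) and 1 lower (7.04%). DESeq2's Wald test and limma on the mean CPM per cell each called 6, where they called 4.48% and 2.96% of all genes, and MRPL21 and MRPL50 were called by both. MRPS25 (0.74, adjusted p = 0.0898), MRPS30 (0.58, adjusted p = 0.118) and MRPS26 (0.57, adjusted p = 0.112) had the largest mean differences by edgeR.

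Whether the response differed between genotypes was tested as the interaction. No member passed edgeR's test (0.185% of all genes did, 0.104% higher and 0.0803% lower). DESeq2's Wald test and limma called 0 members as well, where they called 1.28% and 0.201% of all genes. At an unadjusted p under 0.05 by edgeR there were 0 higher (4.87% of all genes) and 6 lower (4.63%). The median difference of the members was -0.17 against -0.01 for all genes. Members averaging 5 or more on the log2 CPM scale were ranked by the interaction, on the log2 scale. MRPL4 (-0.85), MRPS25 (-0.73) and MRPL58 (-0.67), the peptidyl-tRNA hydrolase that frees stalled ribosomes, were the lowest of these. MRPL32 (0.44), MRPS33 (0.40) and MRPL43 (0.33) were the highest. For the summed level the difference between genotypes was -0.13 on the log2 scale when counts were summed over cells. When every cell weighed the same it was 0.03, since the response then was 0.22 in WT and 0.25 in knockdown cells.

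**Figure D3:**
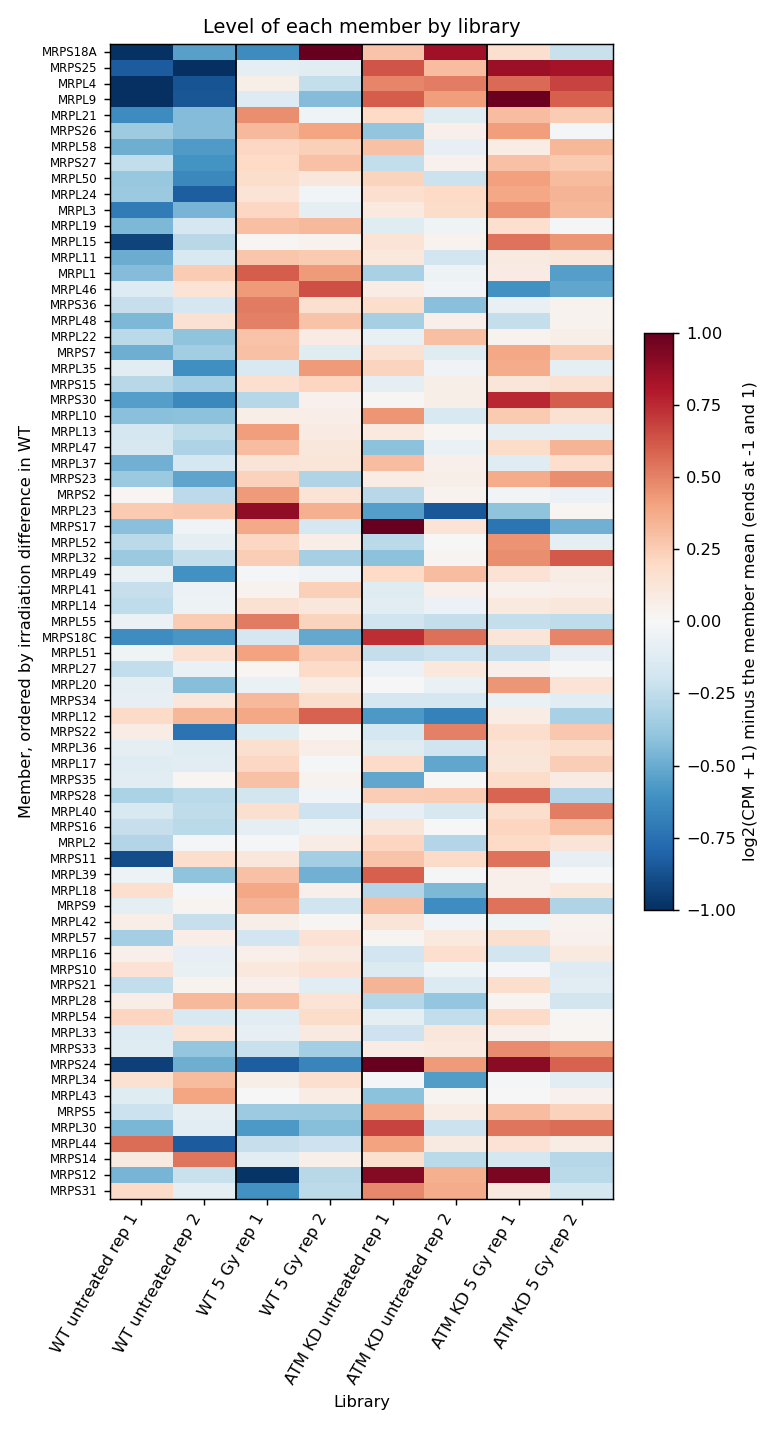
Log2(CPM + 1) of each of the 73 tested members (rows) in each library (columns), relative to the mean of that member, with colours ending at -1 and 1. Rows are ordered by the irradiation difference in WT, so the contrast between the first 4 columns follows from the order; the knockdown columns did not enter it.

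Members of both subunits stood mostly higher after irradiation. In WT 43 of 48 tested large-subunit members stood higher, with a median of 0.29, and 18 of 24 small-subunit members, with a median of 0.22. In knockdown cells these were 36 of 48 (0.17) and 17 of 24 (0.05). Members with a bacterial counterpart and mitochondrion-specific ones stood higher in 39 of 46 and 22 of 26 cases in WT, both with a median of 0.27. Among the 20 members that share no exon with another gene and have no named pseudogene, 20 stood higher in WT and 16 in knockdown cells. MRPS36, which is not a ribosomal protein, was at 42.7 and 44.8 CPM and then at 72.7 and 56.3 CPM in WT.

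Other sums differed with irradiation as well. The 78 cytoplasmic ribosomal protein genes summed to 73392 and 85471 CPM in untreated and 98296 and 99332 CPM in irradiated WT, and to 89909.9 and 83545 CPM and then 93594 and 90313 CPM in knockdown cells. Of 77 tested, 9 passed as higher and 0 as lower in WT, where 0.907% and 0.739% of all genes did. The 41 genes of the G1/S list summed to 2183 and 2220.1 CPM in untreated and 3535 and 5236 CPM in irradiated WT, with 13 of 41 passing as higher. The 52 genes of the G2/M list summed to 12267 and 5961 CPM in untreated and 10534 and 6578 CPM in irradiated WT, and the treatments overlapped. In knockdown cells they summed to 7696 and 8506 CPM untreated and 5273 and 4932 CPM irradiated. There 49 of 52 stood lower and 0 passed edgeR's test (0.225% of all genes did). The part of these lists in the members' difference was not tested.

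The second comparison set knockdown-labelled against WT cells. In untreated cells, 54 of 73 members stood higher in the knockdown (49.3% of all genes), with a median log2 difference of 0.23 against -0.01. Of these, 6 passed edgeR's test as higher, where 4.83% of all genes passed, and 1 passed as lower, where 5.11% did. The members' share of calls, 9.59%, was close to the 9.94% of all genes called in either direction. At an unadjusted p under 0.05, 17 members were higher (11.6% of all genes) and 5 lower (12.1%).

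MRPS18C, one of the small-subunit paralogs of a bacterial protein, was at 107 and 109.9 CPM in untreated WT and at 276 and 242 CPM in untreated knockdown cells, a log2 difference of 1.26 (SE 0.19, adjusted p = 0.000744 by edgeR). MRPL4 was at 18.2 and 23.4 CPM against 61.0 and 62.2 CPM, a difference of 1.57 (SE 0.27, adjusted p = 0.00167). MRPS25 was at 25.4 and 14.4 CPM against 71.7 and 57.0 CPM, a difference of 1.69 (SE 0.29, adjusted p = 0.00185). These 3 passed under every alternative run. In each, all 4 knockdown libraries lay above all 4 WT libraries.

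MRPL9 was at 7.87 and 10.2 CPM in untreated WT and at 29.6 and 26.0 CPM in untreated knockdown cells, a log2 difference of 1.62 (adjusted p = 0.0121). MRPL24, an exit-tunnel protein, was at 69.6 and 50.5 CPM against 101.5 and 104 CPM (0.77, adjusted p = 0.031). MRPL3, which reaches toward the peptidyl transferase centre, was at 52.1 and 61.6 CPM against 91.1 and 96.9 CPM (0.73, adjusted p = 0.0402). MRPL12, the stalk protein that also binds the mitochondrial RNA polymerase, was the single member called lower, at 102 and 113 CPM against 59.6 and 55.2 CPM (-0.90, SE 0.21, adjusted p = 0.0144). Without replicate 2 of the untreated knockdown, MRPL4, MRPL9, MRPS18C and MRPS25 were called and MRPL3, MRPL12 and MRPL24 were not. Without replicate 2 of untreated WT, MRPL3, MRPL12 and MRPL24 were lost as well, and without replicate 1 of untreated WT, MRPL3 and MRPL9 were. MRPL3 was also lost without either irradiated knockdown library and, with MRPL24, without replicate 1 of the untreated knockdown. With the compared groups alone MRPL3, MRPL9 and MRPL24 were not called, without cells above 2 times the median total MRPL3 and MRPL24 were not, and by limma MRPL3 was not.

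**Figure D4:**
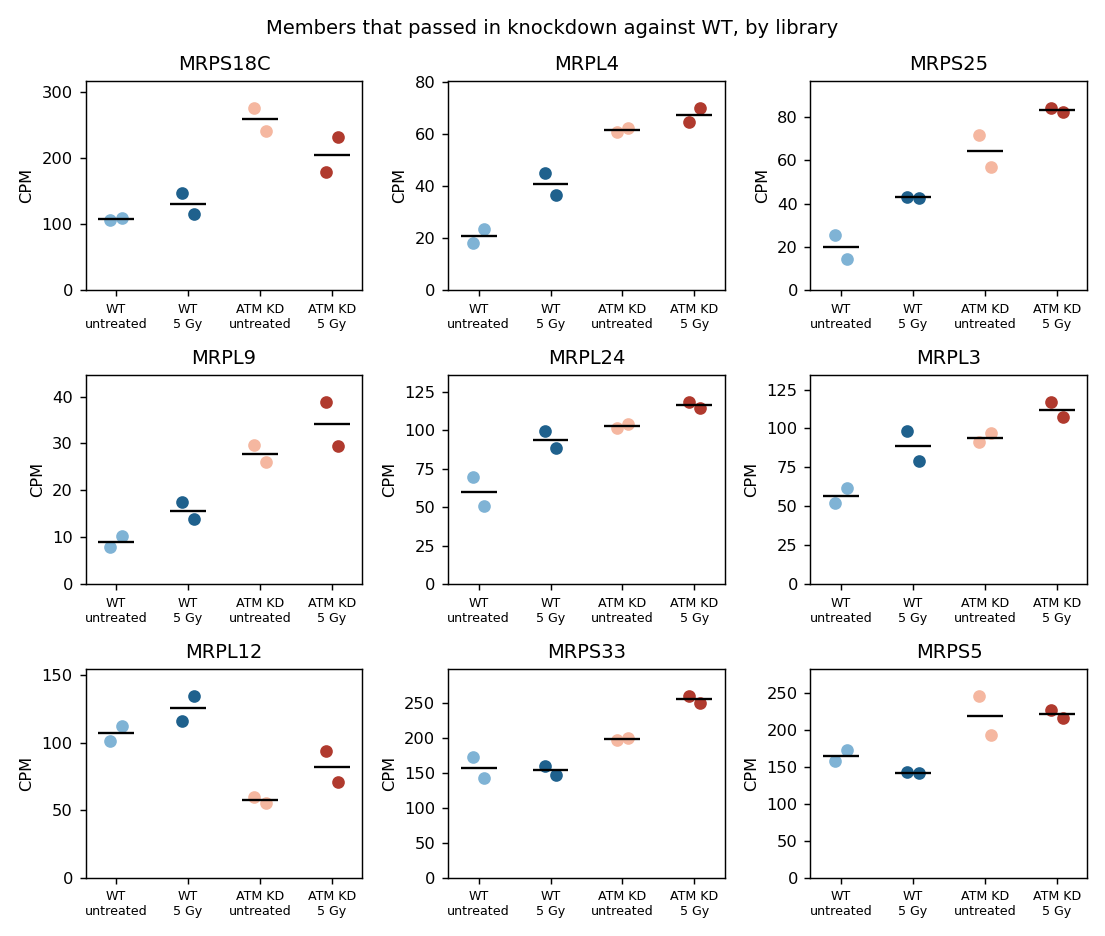
Level in CPM (vertical axes, starting at 0) of the 9 members called between knockdown and WT, in each of the 8 libraries (points) with group means (bars). In 8 of the 9, MRPL3 being the exception, the 4 knockdown libraries lie wholly above or below the 4 WT libraries. The 9 were picked by tests on these same libraries, which favours such separation. Of all genes tested, 8.61% lie wholly above and 8.86% wholly below.

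In irradiated cells 40 of 73 members stood higher in the knockdown (49.7% of all genes), with a median of 0.05 against -0.00. Calls were 2 higher, where 2.18% of all genes passed, and 0 lower (2.92%), against 5.1% of all genes called in either direction. At an unadjusted p under 0.05, 11 members were higher (8.61% of all genes) and 7 lower (9.87%). DESeq2's Wald test and limma on the mean CPM per cell each called 8, where they called 8.88% and 5.94% of all genes. MRPS33, a mitochondrion-specific small-subunit protein, was at 159.9 and 147 CPM in irradiated WT and at 259 and 249.99 CPM in irradiated knockdown cells, a log2 difference of 0.73 (SE 0.17, adjusted p = 0.0192 by edgeR). MRPS5, which sits where messenger RNA enters the small subunit, was at 143 and 142 CPM against 228 and 216 CPM, a difference of 0.64 (SE 0.17, adjusted p = 0.0459). Neither passed when any one of the 4 irradiated libraries was left out. The other members averaging 5 or more on the log2 CPM scale did not pass edgeR's test. Of these, MRPS25 (0.96, adjusted p = 0.0709) and MRPS30 (0.80, adjusted p = 0.079) had the largest positive differences. MRPL23 (-0.84, adjusted p = 0.14), MRPL1 (-0.73, adjusted p = 0.19) and MRPL55 (-0.63, adjusted p = 0.0957) had the largest negative ones. MRPL23 was low in untreated knockdown cells too, at 23.9 and 19.3 CPM against 42.8 and 43.1 CPM in WT (-0.99, adjusted p = 0.0538), as was MRPL28 (-0.54, adjusted p = 0.109).

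Across treatments, 11 members had all 4 knockdown libraries above all 4 WT libraries (8.61% of all genes): MRPL4, MRPL9, MRPL15, MRPL24, MRPL49, MRPS5, MRPS16, MRPS18C, MRPS24, MRPS25 and MRPS33. MRPL12, MRPL23, MRPL28, MRPL34, MRPL51 and MRPL55 had all 4 below (8.86%). These 11 and 6 are out of 73 tested members. All of the latter and 5 of the 11 former are large-subunit members, as are 51 of all 77 members. No test of subunit was made. The ratio of the large-subunit to the small-subunit sum was 2.88 and 3.16 in untreated WT, 3.16 and 3.28 in irradiated WT, 2.57 and 2.69 in untreated knockdown and 2.71 and 2.77 in irradiated knockdown cells. The ratio lay lower in every knockdown library than in any WT library, and no test was made of it. Its small-subunit sum includes MRPS18C and MRPS25, both higher in all knockdown libraries. For each, 100% of the last 500 exon bases is shared with a gene on the opposite strand. Whether the ratio separates the genotypes without these members was not tested. The luminal epithelial markers also differed by genotype, with sums of 2139 to 2641 CPM in WT and 1263 to 1676 CPM in knockdown libraries. Of the 52 genes of the G2/M list, 12 passed as lower (2.92% of all genes) and 0 as higher (2.18%) in irradiated knockdown against irradiated WT. Their sums were 5273 and 4932 CPM against 10534 and 6578 CPM. The G2/M sums of untreated cells overlapped between genotypes. Their part in these differences was not tested.

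Of the 7 members called between untreated genotypes, 3 lie end to end with a gene on the opposite strand. MRPS18C (chr4:83455932-83469735, GRCh38, plus strand) overlaps exons of ABRAXAS1, and MRPS25 (chr3:15042460-15065335, minus strand) overlaps exons of NR2C2, in both cases over 100% of the last 500 exon bases. MRPL9 (chr1:151759643-151763564, minus strand) shares 53.8% of them with other genes, OAZ3 among these. For MRPL4 the shared part was 44.4%, with genes on the opposite strand, and for MRPL12 37.4%, with AC139530.2 on the same strand. Whether counting used the strand is not given in the sources used here, so reads of such pairs may be mixed. Over all genes, the 619 with more than 50% of the last 500 exon bases shared with the opposite strand had a median log2 difference of 0.31 between untreated knockdown and WT, against -0.02 for the 11602 with at most 50% shared. For members the medians were 1.62 (n = 5) and 0.21 (n = 65). This split was chosen after the values were seen. MRPL24 (chr1:156737303-156741590, minus strand) and MRPL3 (chr3:131462212-131502983, minus strand) share no exon with another gene. For irradiation in WT the medians of the same members were 0.79 (n = 5) and 0.28 (n = 65), and in knockdown cells 0.19 (n = 5) and 0.14 (n = 65). All 5 of the former stood higher in WT and 3 in knockdown cells. Of the 65 members with at most 50% shared, 55 stood higher in WT and 50 in knockdown cells.

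In single cells the members were read at a common depth of 69000 counts, which 330 cells reached and 33 did not. Of the 77 members, 1, MRPL14, was found in every one of these cells, 25 in at least 90% and 4 in under 10%. The median cell held 52 to 55 members in untreated libraries, 57.5 to 60 in irradiated WT and 62 to 64 in irradiated knockdown libraries. The members' share of a cell's counts had library medians of 0.681% and 0.738% in untreated WT, 0.865% and 0.833% in irradiated WT, 0.797% and 0.800% in untreated knockdown and 0.941% and 0.903% in irradiated knockdown cells. Without thinning the medians were 0.670%, 0.727%, 0.861%, 0.826%, 0.769%, 0.803%, 0.926% and 0.913% in the same order. The irradiated libraries lay above the untreated ones in both genotypes at either depth. Cells were picked by hand, and no doublet caller was run.

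**Figure D5:**
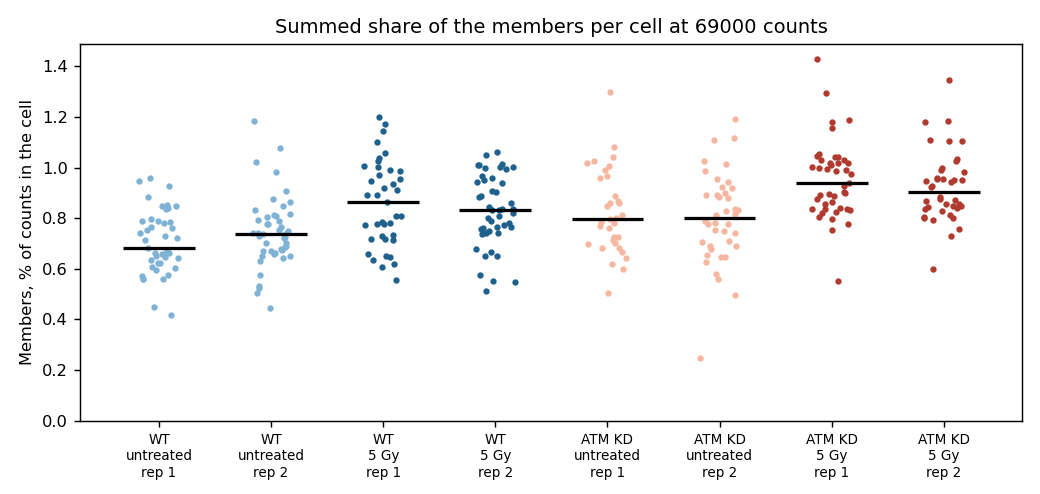
Share of each cell's counts, in %, taken by the 77 members (vertical axis) after thinning to 69000 counts, for the 330 cells by library, with medians as bars. Cells of irradiated and untreated libraries overlap widely, and the medians of the irradiated libraries are higher.

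Within a library, the summed share had a coefficient of variation across cells of 15.1% to 22.5%. Of the 19 members with a mean of at least 10 thinned counts, MRPL14 (43.1%), MRPL33 (47.04%), MRPL41 (51.5%), MRPL51 (54.5%) and MRPS10 (55.2%) had the lowest coefficients of variation, as medians over libraries. MRPS5 (83.6%), MRPL22 (80.9%), MRPS18C (79.3%), MRPL34 (78.7%) and MRPL16 (76.2%) had the highest. The steadiest were also the most counted, and counting noise was not removed. Pairs of these 19 members had a mean correlation across the 33 to 46 cells of a library of 0.05 to 0.14, against 0.01 to 0.09 for pairs of the 1248 genes with such a mean and 0.15 to 0.31 for cytoplasmic ribosomal protein genes. The summed share correlated negatively with the share of mitochondrially encoded transcripts, at -0.39 to -0.58 in 7 libraries and -0.14 in replicate 2 of irradiated knockdown. Its correlation with the cytoplasmic ribosomal protein share was 0.13 to 0.63, with the G1/S share 0.01 to 0.48 and with the G2/M share 0.02 to 0.52, with both cell-cycle values highest in replicate 1 of untreated WT. The cells of each correlation share a library, and all shares have the same total as denominator.

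The wider machinery of mitochondrial translation was read from fixed lists. After irradiation, 0.907% of all genes passed as higher and 0.739% as lower in WT, and 0.0321% and 0.193% in knockdown cells. Of 28 assembly factors, 22 stood higher in irradiated WT, and C1QBP, a mitochondrial matrix protein, was the 1 that passed, at 181 and 183 CPM untreated and 384 and 393 CPM irradiated (log2 difference 1.10, adjusted p = 0.00217 by edgeR). Of 20 translation factors, 17 stood higher and SLIRP, which stabilises mitochondrial messenger RNAs with LRPPRC, passed, at 663 and 730 CPM and then 1156 and 996 CPM (0.63, adjusted p = 0.0289). Of 5 ribosomal proteins under other symbols, GADD45GIP1, a large-subunit protein, passed at 232 and 284 CPM and then 425 and 401 CPM (0.68, adjusted p = 0.0375). None of these lists had a call in knockdown cells, and the interaction was not passed by C1QBP (adjusted p = 0.149), SLIRP (adjusted p = 0.319) or GADD45GIP1 (adjusted p = 0.27). Of 15 mitochondrial tRNA synthetases, 9 transcription and genome factors and 9 regulators of biogenesis, 0 passed after irradiation in either genotype. The 13 mitochondrially encoded transcripts, whose messages these ribosomes read, stood higher in 9 of 13 cases in WT and 1 of 13 in knockdown cells, with 0 calls.

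Between untreated genotypes, C1QBP, GTPBP10 and TFB1M of the assembly list and GFM1, LRPPRC, MTIF2 and SLIRP of the translation factors passed as higher in the knockdown, with none lower. Of all genes, 4.83% passed as higher and 5.11% as lower in that comparison. MTIF2, the initiation factor that brings the first tRNA, was at 31.2 and 28.5 CPM in untreated WT and at 59.9 and 70.9 CPM in untreated knockdown cells (1.13, adjusted p = 0.00627). MYC passed as higher in the knockdown in untreated (1.01, adjusted p = 0.00651) and irradiated cells (1.08, adjusted p = 0.0082). Among the mitochondrially encoded transcripts, 5 passed as higher and 1 as lower in untreated cells.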

How the data were processed

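The authors deposited 1 table of whole-number counts per coding gene and cell for each library. Per the submitters' processing notes, Trimmomatic 0.36, HISAT2 2.1.0, HTSeq 0.9.1 and the build hg38 were used. The annotation, the strand setting and whether counts are reads or molecules are not given in the sources used here. Genes not listed in a library's table were set to 0. Cells with at least 1000 detected genes and 5000 counts were kept and their counts summed per library. The quasi-likelihood test of edgeR 4.0.16 was run on these sums after filterByExpr and TMM scaling. All 4 groups entered a single model, and p-values were adjusted by Benjamini-Hochberg over 12456 genes at a threshold of 0.05. The low-count filter passed 73 of the 77 members. The script was tested on simulated data. Per-cell measures used counts thinned with a fixed seed.

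The members, gene lists and tests were chosen with earlier results of these data known. Named members were those past the threshold, the 3 largest differences in each direction among members averaging 5 or more on the log2 CPM scale, the highest and lowest per kilobase, a fixed set by role, and the 5 lowest and highest coefficients of variation. Others were chosen after their values were seen. Alternatives were DESeq2 1.42.0 (size factors or Wald test), total counts without scaling, the low-count filter dropped or raised, limma 3.58.1 on log2 of the mean CPM per cell plus 1, the compared groups alone, other cell filters and each library left out. Gene positions and shared exons came from GENCODE 29.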

Additional observations from a re-analysis of the deposited data

How the results depend on the processing

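The number of members called depended on the filter and the tool, and the cause was not tested. For irradiation in WT, edgeR called 0, with 3 calls without the low-count filter (3.55% of all genes called), 2 at an average log2 CPM of at least 5 (6.4%), 4 by DESeq2's Wald test (4.7%), and 0 to 2 leaving out 1 library (0.678% to 2.84%). The share of all genes called stands in brackets here and below. For irradiation in knockdown cells 1 member was called without the filter (1.57%). For the mean of both genotypes 6 were called without the filter (3.86%), 6 by the Wald test (4.48%), 6 by limma on the mean CPM per cell (2.96%) and 0 to 1 leaving out 1 library (1.04% to 2.85%). Between untreated genotypes, 7 calls became 4 with the compared groups alone (6.1%). They became 10 without the filter (11.2%), 8 at the higher filter (22.7%) and 10 by the Wald test (14.8%). Limma called 9 (12.1%), and 9 were called without cells above 2 times the median total (8.99%). Between irradiated genotypes, 2 calls became 4 without the filter (6.95%), 6 at the higher filter (15.4%), 8 by the Wald test (8.88%), 8 by limma (5.94%) and 0 to 5 leaving out 1 library (2.33% to 7.46%). The interaction had 0 calls under every other filter, scaling and tool, where 0.177% to 1.3% of all genes were called.

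The summed log2 difference stayed above 0 for irradiation in WT (0.22 by mean CPM per cell, 0.218 to 0.302 leaving out 1 library) and in knockdown cells (0.25 by mean CPM per cell), with a mean of 0.24 over both. The difference between genotypes reversed to 0.0270 by mean CPM per cell. Between untreated genotypes the summed log2 difference was 0.153 with the main settings. It was 0.21 without scaling, 0.20 without cells above 2 times the median total, and 0.116 to 0.190 leaving out 1 library. The 10 members with over 50% of the last 500 exon bases shared summed to means of 277 CPM in untreated WT and 531 CPM in untreated knockdown. Their part in the difference was not tested. Between irradiated genotypes the summed log2 difference was 0.0223 with the main settings. It was 0.0928 without scaling, 0.15 by mean CPM per cell and 0.10 without large cells. Leaving out 1 library gave -0.01 to 0.05, so its direction is not settled. MRPL39 ranged from -0.593 to 0.0330 in knockdown cells leaving out 1 library, reversing without replicate 1 of the untreated group, and MRPS5 reversed to 0.0930 in the mean of both genotypes without large cells. Under other scalings and the mean CPM per cell, added after seeing the data, 19 to 22 members were higher without overlap in both genotypes.

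Replicate 1 of irradiated WT had the fewest counts, 83466 over the members against up to 190935 elsewhere, and each group held 2 libraries. No paired analysis was possible because the labels give no replicate numbers that link libraries across groups.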
